A study of Homo sapiens with 30 samples.

Results

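Of the 6142 distinct ERG peaks called in VCaP prostate cancer cells, 797 lay on chromosomes 1 to 22 or X, had a q-value of 0.01 or below (−log10 q of at least 2) and overlapped no open-chromatin peak in any of 3 RWPE1 lines. These 797 regions are called closed peaks here. They were chosen by their own q-value and by the absence of an overlapping ATAC-seq peak, so both measures, and the pileup and fold enrichment from the same peak call, are given as a description. The other 738 of the 1535 VCaP peaks that passed the q-value limit overlapped an ATAC-seq peak in at least 1 line by at least 1 bp and are called open peaks. The closed peaks were 51.9% of the peaks that passed.

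The series holds 30 samples and asks how the Ras/ERK and PI3K/AKT pathways alter transcription driven by ERG in prostate cells. VCaP is a prostate cancer line that carries the TMPRSS2-ERG rearrangement, and the ChIP library used here came from cells given DMSO on days 1, 3 and 6 and an ERG antibody. RWPE1 is an immortalised prostate epithelial line that lacks this rearrangement, and its derivatives were made by retroviral transduction of an empty vector, ERG isoform 1, the phosphomimetic mutant ERG S96E, myristoylated and constitutively active AKT (mAKT), or ERG together with mAKT. The vector line of the RNA samples carried the empty pQCXIH and pBabe-puro vectors, the vector line of the ChIP samples is labelled with pQCXIH alone, and all lines were drug-selected populations. ATAC-seq was used from 3 lines, namely RWPE1 with ERG, with mAKT and with both, so that open chromatin in the vector line was not part of the rule and was not analysed here. H3K27me3 ChIP-seq was used from the vector line, the ERG line and the S96E line, ERK2 ChIP-seq from the vector and ERG lines, ERG ChIP-seq from the line with both ERG and mAKT, and RNA-seq from that line, the vector line, the ERG line and the mAKT line. Each peak list came from 1 library, and each RNA value was pooled by the authors over 3 replicates of a line. No list therefore has a replicate, and no difference below was tested between samples. The intervals are 95% Wilson binomial intervals and cover counting error only.

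ERG is a transcription factor of the ETS family, whose members bind DNA around a GGAA core. It is absent from normal prostate epithelium, and the TMPRSS2-ERG fusion places it under an androgen-responsive promoter. ATAC-seq marks DNA that is accessible to a transposase, while H3K27me3 is the histone mark left by Polycomb repressive complex 2 and is found over silent developmental genes. VCaP cells are luminal, whereas RWPE1 cells are known to express both basal and luminal keratins.

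The RWPE1 RNA held both basal and luminal keratins. KRT5, a basal keratin, was at an FPKM (fragments per kilobase of transcript, scaled to library depth) of 3126 in RWPE1-vector, 1170 in RWPE1-ERG, 3642 in RWPE1+mAKT and 3519 in RWPE1-ERG+mAKT. TP63, the basal lineage factor, ranged from 21.3 to 39.2. KRT8, a luminal keratin, was at 622, 1769, 671 and 921 in the same order of lines and KRT18, its partner, at 817, 1843, 987 and 958, so that both were above KRT5 in RWPE1-ERG. KLK3 and KLK2, both androgen-regulated kallikreins, were listed at 0 in all 4 lines. ERG itself was at 0.264 in RWPE1-vector, 358 in RWPE1-ERG, 0.435 in RWPE1+mAKT and 328 in RWPE1-ERG+mAKT. VCaP RNA was not analysed here. KLK3 and KLK2 each had 2 VCaP peaks within 50 kb, but none of them passed the q-value limit.

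The DNA under the 5 closed peaks of highest fold enrichment is shown so that the GGAA cores around their summits can be read. Which of these cores ERG contacts was not tested. Each line covers 100 bp to either side of the summit on the plus strand of GRCh37 (hg19), and capitals mark every GGAA core on either strand (TTCC on the strand shown).

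SETD4 intron, chr21:37418385-37418585: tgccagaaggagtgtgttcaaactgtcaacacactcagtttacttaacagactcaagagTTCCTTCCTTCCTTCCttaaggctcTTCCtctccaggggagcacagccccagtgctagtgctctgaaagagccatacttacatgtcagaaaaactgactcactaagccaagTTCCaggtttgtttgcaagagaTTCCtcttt

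RPTOR intron, chr17:78816313-78816513: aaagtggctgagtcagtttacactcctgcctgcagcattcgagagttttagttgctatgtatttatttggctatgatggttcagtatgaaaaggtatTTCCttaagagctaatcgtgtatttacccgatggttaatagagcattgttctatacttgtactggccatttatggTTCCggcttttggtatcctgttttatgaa

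LPP intron, chr3:187947035-187947235: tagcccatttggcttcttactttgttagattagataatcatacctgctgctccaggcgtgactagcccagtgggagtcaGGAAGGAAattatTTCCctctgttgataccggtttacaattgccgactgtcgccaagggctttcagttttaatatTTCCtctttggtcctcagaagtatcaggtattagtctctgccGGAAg

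GATA6-AS1 side, between genes, chr18:19682990-19683190: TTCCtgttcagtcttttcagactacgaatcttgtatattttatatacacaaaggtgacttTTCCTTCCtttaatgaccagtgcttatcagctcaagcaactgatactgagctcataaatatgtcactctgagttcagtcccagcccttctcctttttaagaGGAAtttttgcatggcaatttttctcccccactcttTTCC

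FAM210A intron, chr18:13675101-13675301: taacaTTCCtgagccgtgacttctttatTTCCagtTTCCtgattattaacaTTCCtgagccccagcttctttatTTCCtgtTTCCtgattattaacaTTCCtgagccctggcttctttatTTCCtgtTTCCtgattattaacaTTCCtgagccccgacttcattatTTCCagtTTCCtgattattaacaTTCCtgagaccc

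The SETD4 window held 7 GGAA cores, 4 of them in an unbroken run of TTCC. The FAM210A window held 13 cores in near-identical tandem copies of a longer unit. The RPTOR window held 2, the LPP window 5 and the GATA6-AS1 window 5. The 13 cores thus come from repeated sequence, and how uniquely reads map there was not tested. A further 2 windows were chosen after their values were seen, because they lie at the fusion partner TMPRSS2 and at ZIC2, which are described below.

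TMPRSS2 intron, chr21:42878566-42878766: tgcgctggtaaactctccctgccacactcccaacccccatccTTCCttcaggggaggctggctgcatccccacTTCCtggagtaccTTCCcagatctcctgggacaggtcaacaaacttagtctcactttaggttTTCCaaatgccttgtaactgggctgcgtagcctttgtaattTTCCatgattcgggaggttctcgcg

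ZIC2 intron, chr13:100636090-100636290: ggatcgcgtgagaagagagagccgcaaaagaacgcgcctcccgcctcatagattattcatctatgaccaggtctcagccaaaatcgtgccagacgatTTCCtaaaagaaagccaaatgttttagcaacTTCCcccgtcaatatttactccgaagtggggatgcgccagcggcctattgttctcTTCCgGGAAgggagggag

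The TMPRSS2 window held 5 GGAA cores and the ZIC2 window held 4.

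Most closed peaks were small. The pileup at the summit, the number of overlapping fragments, had a median of 11 (range 9 to 352), and 719 of the 797 peaks had a pileup of 20 or below. The lowest pileup, 9, was found at 154 peaks. Fold enrichment over the local background had a median of 4.64 (range 1.58 to 8.83), peak width had a median of 278 bp (range 161 to 1345) and −log10 q had a median of 2.83 (range 2.01 to 42.0). Open peaks had a median pileup of 17, a median fold enrichment of 4.36 and a median width of 361 bp. Away from the long assembly gaps described below, the median fold enrichment was 4.69 for closed and 4.73 for open peaks, so the order of the sets turned, and the median pileups were 11 and 12. At the limit, 161 closed peaks were tied at the lowest −log10 q of 2.01 with pileups of 9 or more. The first 3 by the naming rule were those at ADAP1, beside SNAR-A11 and at SCARB2, and the 3 peaks just outside the limit, at ALG9, beside LINC01106 and at OPA1, had a −log10 q of 1.99 and a pileup of 9.

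The closed peaks were not all far from accessible DNA. The gap to the nearest ATAC-seq peak of any line had a median of 8026 bp, and 370 peaks were over 10 kb away. At the other end 81 peaks lay within 500 bp, the closest being 1 bp away at FFAR2, 7 bp at ABCC10 and 25 bp beside STOX1. Closed peaks therefore include regions at the shoulder of an open site, and leaving these 81 out moved no H3K27me3 share outside its interval (13.1%, 7.54% and 9.92% in the vector, ERG and S96E lists, described below).

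The peak of highest fold enrichment lay in an intron of SETD4, a SET-domain protein gene, at 8.83-fold with a pileup of 22. Peaks in introns of RPTOR, the scaffold subunit of mTOR complex 1, and LPP, a LIM-domain protein of focal adhesions, followed at 8.52-fold, each with a pileup of 18. A peak 60926 bp from GATA6-AS1, the antisense RNA of the lineage factor gene GATA6, was at 8.42-fold. Of the remaining 6 of the top 10, 5 lay within FAM210A (8.07-fold), CHODL (7.72-fold), RUNDC3B (7.68-fold), TAAR1 (7.47-fold) and IPO9-AS1 (7.17-fold), and 1 lay 83128 bp from GBE1 (7.49-fold). The nearest genes of these 10 did not share an expression level in RWPE1. FAM210A was at an FPKM of 10.9, 12.0, 9.59 and 8.23 in the vector, ERG, mAKT and ERG+mAKT lines, and GBE1, the glycogen branching enzyme, ranged from 13.1 to 15.3. CHODL, in contrast, ranged from 0 to 0.0384 and TAAR1, a trace amine receptor, was listed at 0 in all 4 lines.

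A minority of closed peaks stood apart by pileup. Among them, 69 (8.66%, 6.90 to 10.8%) lay within 1 Mb of an assembly gap of at least 1 Mb, which in GRCh37 are mostly centromeres, and the 10 highest pileups of all closed peaks, 155 to 352, were all in this group. Their local background, computed from pileup and fold enrichment as the pileup that MACS2 took for no binding, had a median of 5.95 against 1.37 for the other 728. Such regions made up a larger share of the open peaks, 274 of 738 (37.1%, 33.7 to 40.7%). Away from these gaps the closed share of the peaks that passed was 61.1% of 1192. LINC01278 and ZXDA, the genes nearest to the most closed peaks (11 and 9), had all of them beside the centromere of chromosome X and were between 490672 and 748342 bp away from them. The main shares are therefore also given away from these gaps.

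**Figure D1:**
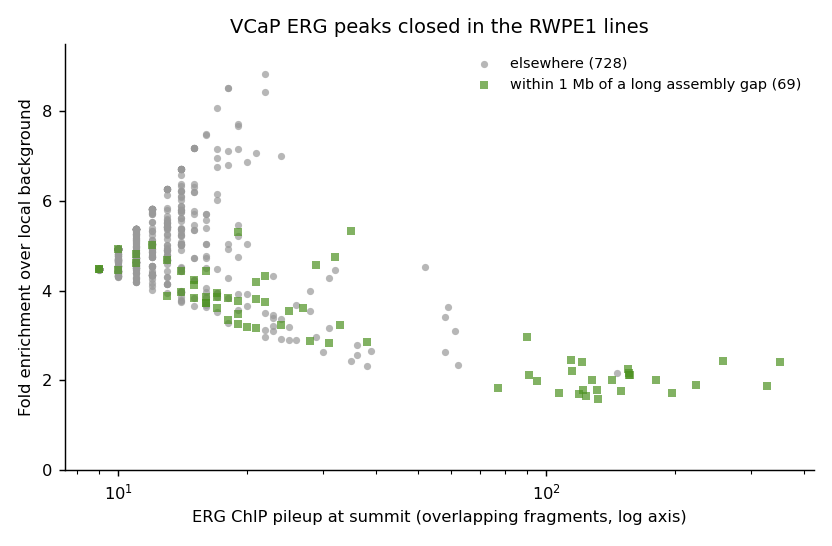
Pileup at the summit (log axis) against fold enrichment for the 797 closed peaks, 1 point per peak. Most points sit at a pileup of 9 to 20 and 4- to 6-fold, the 69 peaks near long assembly gaps (squares) reach a pileup of 352 at low fold enrichment.

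TMPRSS2, the androgen-regulated serine protease gene whose promoter drives the fusion, had 1 closed peak at 5.32-fold with a pileup of 12. It lay within the gene, 24377 bp from the outermost annotated start, and only 75 bp from an ATAC-seq peak. Its distance to other starts of the gene, and so to the promoter used in the fusion, was not measured. It overlapped H3K27me3 in all 3 lists, at 1.96-fold in the vector line, 2.88-fold in the ERG line and 4.76-fold in the S96E line, in regions of 720, 2620 and 7056 bp. Each list is 1 library, and the median enrichment of all regions in a list rose in the same order, from 1.84 to 1.94 and 2.01. No difference between the lines is therefore read from this site. TMPRSS2 RNA was at an FPKM of 0.00426 in RWPE1-vector, 0.0115 in RWPE1-ERG, 0.0149 in RWPE1+mAKT and 0.0536 in RWPE1-ERG+mAKT. These levels are all below 0.1, the level used here for a gene that is nearly off, and the line with both ERG and mAKT was the highest.

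Over all 26248 genes of the table, 680 (2.59%) were nearest to a closed peak. Among luminal prostate genes, PCA3, a long non-coding RNA made in prostate tumours, had a peak in an intron at 5.11-fold and an FPKM of 0 to 0.0171. NDRG1, an androgen- and stress-responsive gene, had a peak 20143 bp away and was expressed at 119 to 216 FPKM, so these genes did not share a level in RWPE1. None of 15 basal genes was nearest to a closed or an open peak, and all 15 reached an FPKM of 1 in at least 1 RWPE1 line. Beside a share of 2.59% over all genes, a count of 0 among 15 is no result about basal genes. Gene length moved with these counts, since the genes nearest to closed peaks spanned a median of 86.6 kb against 22.5 kb over all genes with an annotated span, and its part in them was not tested.

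The other lists held few members. ERG is expressed in endothelium, and 3 of 15 endothelial genes (20.0%) were nearest to a closed peak, namely CLDN5, a tight junction protein with 2 peaks, FLT1, a VEGF receptor, and PECAM1, an adhesion molecule. The FPKM of these 3 genes stayed at or below 0.186 in every line. Their peaks were weak. Those at FLT1 and PECAM1 had the lowest pileup, 9, and the lowest −log10 q, 2.01. Both CLDN5 peaks had a pileup of 10, with a −log10 q of 2.83 and 2.80. Closed peaks also had DPP6, GRIK2 and CADM2, genes of neuronal membrane proteins, as their nearest genes, and the FPKM of these genes was at or below 0.0979. Of 27 ETS genes 1 was found, ETV1, whose peak lay 468325 bp away, and of 32 developmental transcription factor genes 2 were found, ZIC2 with 2 peaks and PAX2 with 1. None of FEM1B, LGR6 and FN1 was nearest to a closed peak, and LGR6 was nearest to an open one. The luminal, endothelial, neuronal and developmental lists each had 0 genes nearest to an open peak, while the ETS list had 1, ELK4. Only 450 of the 26248 genes were nearest to an open peak, and these spanned a median of 46.1 kb. Beside that base, counts of 0 in lists of 15 to 32 genes are no result, and no contrast with the closed peaks is read from them.

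Closed peaks were found mainly within introns and between genes. Only the outermost annotated start of each gene was used, so peaks at inner starts count as exon or intron. By the position of the summit, 32 (4.02%, 2.86 to 5.61%) were within 1 kb of a gene start, 35 (4.39%) in other exons, 365 (45.8%, 42.4 to 49.3%) in introns and 365 (45.8%) between genes. Of the open peaks, 153 (20.7%, 18.0 to 23.8%) were within 1 kb of a gene start and 123 (16.7%, 14.2 to 19.5%) in introns. Without the regions near assembly gaps the shares were 4.40% for closed and 32.8% for open peaks at gene starts, and 50.0% and 26.5% in introns. A total of 409 closed peaks (51.3%) were over 50 kb from the nearest gene start. SMYD3, a histone methyltransferase gene, had 4 closed peaks, all inside the gene, and ATG7, an autophagy gene, and the non-coding CASC15 had 3 each.

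The genes nearest to closed peaks were 680 in number, and 602 of them had a single closed peak. In RWPE1-vector their median FPKM was 0.888, with 264 (38.8%, 35.2 to 42.5%) below 0.1 and 338 (49.7%, 46.0 to 53.5%) at 1 or above. The 450 genes nearest to open peaks had a median of 4.36, with 21.1% (17.6 to 25.1%) below 0.1 and 66.2% (61.7 to 70.4%) at 1 or above. All 26248 genes of the table had a median of 0.443, with 43.0% below 0.1 and 45.7% at 1 or above. In these shares, genes near closed peaks lay nearer to all genes than to the genes near open peaks. The values of all genes were still just outside the intervals for closed peaks. The intervals of the 2 peak sets did not overlap at either level. The peaks were divided by accessibility in RWPE1 lines, so this difference is not independent of how they were chosen. Away from assembly gaps the medians were 1.13 and 5.27, with 38.0% and 18.0% below 0.1. The other 3 lines gave medians of 0.915 to 1.09 for closed and 3.95 to 4.43 for open peaks. A total of 69 genes were nearest to peaks of both kinds. Where the peak lay inside the gene, the median in RWPE1-vector was 2.05 over 398 genes for closed peaks and 8.87 over 270 genes for open peaks.

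**Figure D2:**
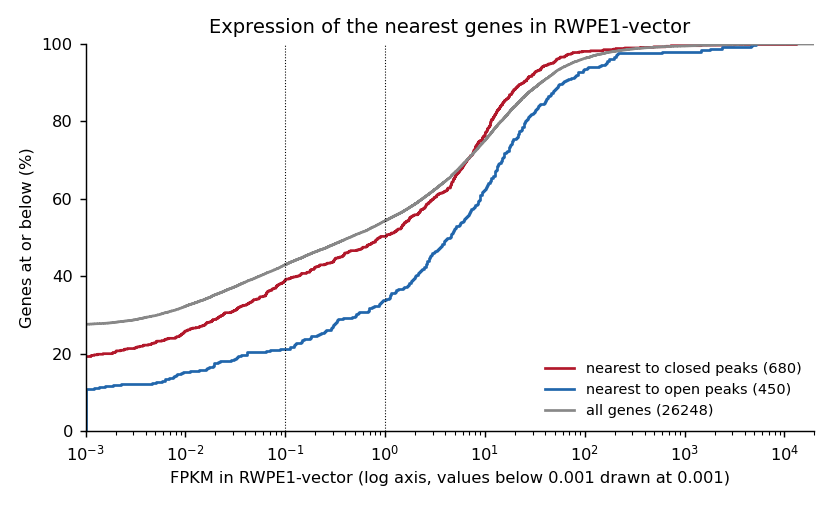
Cumulative share of genes by FPKM in RWPE1-vector (log axis) for the genes nearest to closed peaks, the genes nearest to open peaks and all genes of the table. Dotted lines mark 0.1 and 1, and the curve for closed peaks, with 38.8% of genes below 0.1, follows that of all genes (43.0%) more closely than that for open peaks (21.1%).

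Closed in RWPE1 did not mean silent. There were 226 nearest genes below 0.1 in all 4 lines and 94 listed at 0 in all 4, but 327 were at 1 or above in all 4. The gene of highest FPKM was MT2A, a metallothionein, at 13332, 19639, 15674 and 6088 FPKM in the vector, ERG, mAKT and ERG+mAKT lines, with a closed peak of pileup 9 at its promoter, 382 bp from an ATAC-seq peak. Peaks inside RPL26 and RPL34, both ribosomal protein genes, HINT1, MYL12A and MGST1 also lay in genes among the 10 of highest FPKM, as did a peak in NEAT1, the RNA of paraspeckles. PABPC1 and NDUFS4, also among the 10, were 4295 and 42674 bp from their peaks. MTRNR2L9, at 1212 to 3600, is a nuclear copy of mitochondrial rRNA, so its FPKM may include reads from that RNA, and its peak was 380451 bp away.

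H3K27me3 regions overlapped 101 closed peaks (12.7%, 10.5 to 15.2%) in the vector line, 56 (7.03%, 5.45 to 9.01%) in the ERG line and 79 (9.91%, 8.03 to 12.2%) in the S96E line. The open peaks gave 5.42% (4.01 to 7.30%), 2.30% (1.44 to 3.66%) and 3.79% (2.64 to 5.43%). Away from the assembly gaps the shares were 13.9%, 7.42% and 10.6% for closed and 8.62%, 3.66% and 6.03% for open peaks. The closed share was higher in each list with and without those regions. The intervals did not overlap in the full sets, whereas away from the gaps those for the RWPE1-ERG and ERG S96E lists overlapped in part. With the gap regions included, 13.4%, 6.03% and 9.32% of closed peaks in introns overlapped H3K27me3, against 9.76%, 3.25% and 6.5% of open ones. Those intervals overlapped in each list. Between genes the shares were 13.2%, 7.95% and 10.1% against 5.5%, 2.75% and 4.36%, without overlap. The part of position in the difference between closed and open peaks was not tested. By bases, H3K27me3 regions covered 7.77%, 4.78% and 7.23% of closed peaks, 2.88%, 1.69% and 2.39% of open peaks, and 8.52%, 4.88% and 7.90% of the sequenced genome. Away from the gaps the covered shares were 8.46%, 4.94% and 7.59% of closed peaks and 5.15%, 3.02% and 4.29% of open peaks. The closed peaks were thus covered about as much as the genome as a whole, and the open peaks less, by a smaller margin away from the gaps. The order of the 3 lists in the closed peaks followed that of their coverage of the genome, and it turned with the regions counted. With equal numbers of regions the shares were 5.27%, 7.03% and 9.66% in the vector, ERG and S96E lists, and with regions enriched 2-fold or more 2.76%, 3.51% and 7.53%, so that the vector list went from the highest share to the lowest. No difference between the lines is therefore read from the order.

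**Figure D3:**
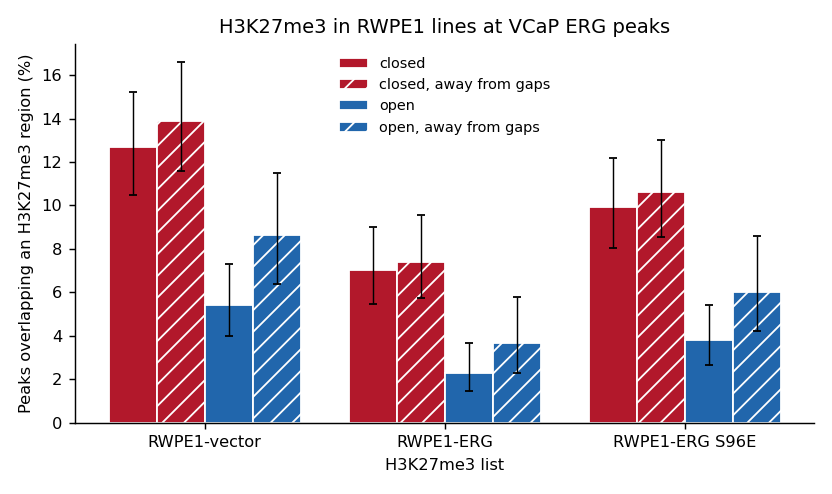
Share of VCaP ERG peaks that overlap an H3K27me3 region in the vector, ERG and S96E lines, with 95% Wilson intervals, for closed and open peaks, each with all regions (plain) and away from long assembly gaps (hatched). Closed peaks (7.03 to 12.7%) lie above open peaks (2.30 to 5.42%) in each list.

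Most of this overlap was with regions of low enrichment that were called in 1 list. The regions touched by closed peaks had a median enrichment of 1.80-fold in the vector list, 1.98-fold in the ERG list and 2.21-fold in the S96E list. Of the 158 closed peaks with a region in any list, 57 had it in RWPE1-vector only, 15 in RWPE1-ERG only and 28 in RWPE1-ERG S96E only, and 20 had it in all 3 lists. The open peaks had 12 in all 3 lists, 1.63% against 2.51% of closed peaks, with intervals that overlapped (0.933 to 2.82% and 1.63 to 3.84%). Away from the gaps the shares were 2.59% and 2.75%.

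Of the 32 developmental factor genes counted above, ZIC2 and PAX2 were nearest to closed peaks, and the peaks of both were among the 20 with H3K27me3 in all 3 lists. The highest fold enrichment of the 20 was at ZIC2, a zinc-finger factor of neural development, where 1 peak was at 7.17-fold and a neighbour at 4.93-fold, both in regions of 8.04-fold H3K27me3 in the S96E line, 3.65-fold in the ERG line and at most 2.17-fold in the vector line. Next were PRDM16, a zinc-finger chromatin regulator (6.27-fold), GREM1, a secreted BMP antagonist (5.83-fold), PRELP, a matrix proteoglycan (5.38-fold) and HLA-DMB, which encodes a class II peptide-loading factor (5.38-fold). A peak 3004 bp from PAX2, a kidney and urogenital factor, lay in the longest region, 58188 bp in the S96E list. As at TMPRSS2, no difference between the lines is read from the H3K27me3 values at ZIC2 and PAX2. The 18 nearest genes of these 20 peaks had a median FPKM of 0.0254 in RWPE1-vector, with 13 (72.2%, 49.1 to 87.5%) below 0.1 and 3 (16.7%) at 1 or above, among them DDX11 at 11.5. The 546 genes whose closed peak had no H3K27me3 in any list had a median of 1.95, with 32.6% (28.8 to 36.6%) below 0.1. ZIC2 itself was at 0.331 to 0.492 and PRDM16 at 0.0160 to 0.0206.

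ERG binding in RWPE1 was taken only from the line with both ERG and mAKT, and few closed peaks overlapped it. Only 2 of 797 (0.251%, 0.0688 to 0.910%) overlapped an ERG peak called in the line with both ERG and mAKT, against 56 of 738 open peaks (7.59%, 5.89 to 9.73%). Both lay in expressed genes. One was in an exon of GGNBP2, 136 bp from an ATAC-seq peak, with a VCaP enrichment of 4.69-fold and an FPKM of 32.0 to 36.5. The other was in an intron of CUX1, a homeobox factor gene, at 4.48-fold, 2921 bp from an ATAC-seq peak, with an FPKM of 11.1 to 15.1. Neither overlapped H3K27me3 in any list. Away from the assembly gaps the shares were 0.275% of closed and 12.1% of open peaks. The rule removes regions open in RWPE1-ERG+mAKT, and factor-bound regions are commonly accessible, so this low share is tied to how the peaks were chosen.

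ERK2, the kinase that phosphorylates ERG, was found at 11 closed peaks (1.38%, 0.772 to 2.45%) in RWPE1-vector and at 6 (0.753%, 0.345 to 1.63%) in RWPE1-ERG, against 4.88% and 5.83% of open peaks. Away from the gaps the shares were 1.51% and 0.824% of closed and 7.76% and 9.27% of open peaks. The ERK2 lists differed in size, with 41276 rows for RWPE1-vector and 5721 for RWPE1-ERG. No difference between the 2 lines is therefore read from these counts. As with the ERG overlap, the lower share of closed than of open peaks is tied to how the peaks were chosen. Peaks in both ERK2 lists were the abundant nuclear RNA genes MALAT1, at 114 to 180 FPKM, and NEAT1, at 184 to 269 FPKM. The others in RWPE1-ERG were at MT2A, SBF2, TPRN and RGMB-AS1. Those in RWPE1-vector included MAPK8, which encodes the kinase JNK1, and a peak 104973 bp from PTGS2, the gene of cyclooxygenase-2, at 6.72-fold.

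The sequence of closed peaks carried the ETS core. Short words were searched on both strands within 100 bp of each summit and in a pair of side windows, equally long and centred 1 kb away. AGGAAG or CGGAAG, the longer ETS word, was found in 321 closed peaks (40.3%, 36.9 to 43.7%) and in 21.1% (19.1 to 23.1%) of their side windows. It was in 295 of 738 open peaks (36.5 to 43.6%) and in 19.5% of theirs, so the intervals of both sets overlapped over all regions. Away from the assembly gaps the closed share was 42.4% (38.9 to 46.1%) and the open share 50.0% (45.5 to 54.5%), with intervals that overlapped narrowly. The bare core GGAA was in 91.0% of closed peaks and 84.2% of side windows, and the repeat GGAAGGAA, which overlaps both words, in 5.65% (4.25 to 7.47%) and 1.88% (1.32 to 2.67%). None of the 797 closed peaks had a short tandem repeat (unit of up to 6 bp) at the summit, against 54 of 738 open peaks (7.32%). Away from the gaps 10 of 464 open peaks had one (2.16%, 1.17 to 3.92%). Repeats of a longer unit, such as that at FAM210A, were not searched for.

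Words of other factors active in luminal prostate cells were counted in the same way. The forkhead word TGTTTAC or TGTTTGC, of the kind FOXA1 binds, was in 125 closed peaks (15.7%, 13.3 to 18.4%) and 7.65% (6.45 to 9.06%) of their side windows, against 11.1% (9.04 to 13.6%) of open peaks, whose interval overlapped that of the closed peaks. The GATA word AGATAA was in 17.8% (15.3 to 20.6%) and 13.1% (11.5 to 14.9%) of the side windows, against 5.96% (4.47 to 7.91%) of open peaks. The HOX word CAATAAA, of the kind HOXB13 binds, was in 10.3% (8.37 to 12.6%) and 6.21% (5.13 to 7.50%) of the side windows, against 1.76% (1.03 to 2.99%) of open peaks. For all of these words the closed share lay above both the side windows and the open peaks, and away from the gaps it was 16.6%, 18.5% and 11.0% for closed against 9.91%, 8.41% and 2.37% for open peaks, with no overlap of intervals. Over all regions, open peaks had the forkhead, GATA and HOX words in 8.13%, 8.06% and 3.93% of their own side windows. The forkhead word was thus also higher at open summits than beside them, with overlapping intervals. The GATA and HOX words were lower at open summits than beside them. AGAACA, a core word of steroid receptor sites such as those of the glucocorticoid receptor, was in 18.4% (15.9 to 21.3%) of closed peaks, 15.6% (13.9 to 17.4%) of side windows and 9.62% of open peaks, so the summits did not stand out from their sides.

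Base composition moved with these words. Closed peaks had a median GC content of 40.8% at the summit and 41.3% in the side windows, while open peaks away from the gaps had 52.2% and 45.8%. The part of base composition in the difference between closed and open peaks was not tested, whereas the summits and side windows of closed peaks were alike in it. The AP-1 word TGAGTCA or TGACTCA was in 2.76% (1.83 to 4.14%) of closed peaks and 3.07% of side windows, against 3.93% of open peaks, and away from the gaps in 2.88% (1.89 to 4.37%) of closed against 6.03% (4.21 to 8.58%) of open peaks. The RUNX word TGTGGTT was in 2.76% of closed peaks and 3.51% of side windows, with overlapping intervals. A match to a word is a description of the DNA and does not show that a factor was bound.

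**Figure D4:**
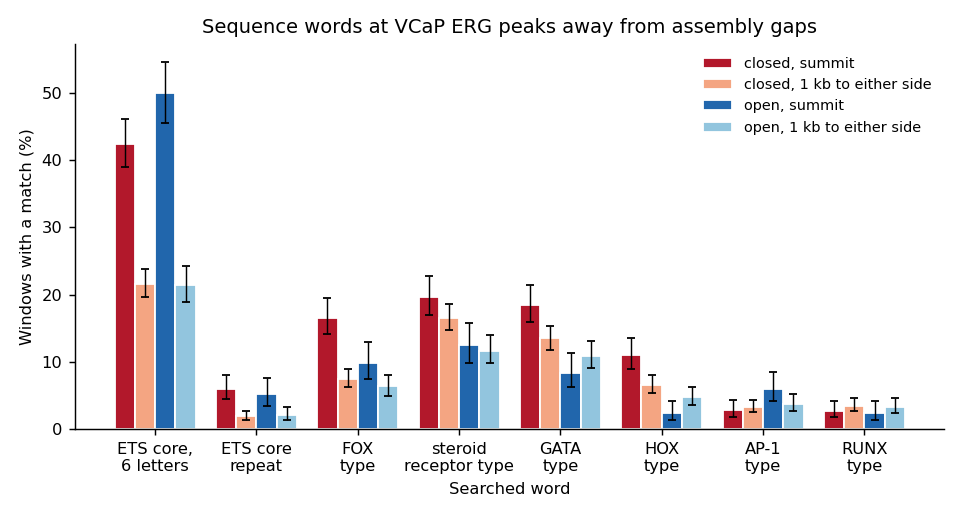
Share of windows with each word at the summit and 1 kb to either side, for closed and open peaks away from long assembly gaps, with 95% Wilson intervals. ETS words are more frequent at summits than beside them in both sets (42.4% of closed and 50.0% of open summits), and the FOX-, GATA- and HOX-type words are more frequent at closed summits (16.6%, 18.5% and 11.0%) than at open ones.

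The nearest genes were also compared between the RWPE1 lines, counting a gene as different where FPKM + 1 changed by at least 2-fold and the higher line reached an FPKM of 1. With ERG over vector, 349 of the 680 genes could be counted, and 10 (2.87%) were higher and 2 (0.573%) lower, against 3.66% higher and 0.994% lower over all genes. With mAKT over vector, 0 of 341 were higher and 1 was lower, against 1.18% and 0.840%. With ERG+mAKT over ERG, 8 of 352 (2.27%) were higher and 9 (2.56%) lower, against 2.06% and 2.52%. With ERG+mAKT over mAKT, 4 of 344 (1.16%) were higher and 1 (0.291%) lower, against 2.08% and 0.891%. The shares were near or below those over all genes in each case, so these counts are no result about the closed peaks, and the comparisons share lines with each other. There is no error on these pooled values.

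The named genes with the largest differences were as follows. MGLL, a monoglyceride lipase, was at 7.67 FPKM in RWPE1-vector, 33.7 in RWPE1-ERG, 4.71 in RWPE1+mAKT and 11.5 in RWPE1-ERG+mAKT. It was thus highest in RWPE1-ERG and lower where mAKT was added. SPARC, a secreted matrix glycoprotein, was at 31.6 in the vector line, 67.5 with ERG, 12.2 with mAKT and 15.4 with both. NFE2L3 (10.0 against 2.49) and ARHGEF26 (7.15 against 1.62) were higher in RWPE1-ERG than in RWPE1-vector, while EPHA7, an ephrin receptor gene, was lower (1.33 against 5.27). PIK3R1, the regulatory subunit of PI3K, was at 10.0 in the vector line and 4.67 with ERG, which was not past 2-fold, and at 11.4 with ERG+mAKT, which was past 2-fold over RWPE1-ERG. TNFSF10, the ligand TRAIL, was at 1.21 with ERG, 1.96 with mAKT and 6.96 with both. CDH4, a cadherin gene, was at 8.79 in RWPE1-ERG and 1.84 with mAKT added, and MT2A was at 19639 and 6088. KCNG1 was at 2.66 and 7.14 in the same lines, and APOD, a lipocalin, was at 2.05 with mAKT alone and 8.02 with both. CAPRIN2 (15.2 in the vector line, 7.89 with ERG), CDK14 (5.02 and 2.59 with mAKT), C20orf197 (5.30 and 9.23), SSBP3 (7.15 and 11.0) and MGST1 (362 and 488) were named by the same rule but were not past 2-fold, nor were RPSAP52 (5.54 with mAKT, 2.31 with both) and PCDHAC2 (5.14 and 2.13).

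Chromosomes differed in how many closed peaks they held. Away from assembly gaps there were 2.57 closed peaks per 10 Mb of sequence, and the highest densities were on chromosome 21, with 19 peaks at 5.41 per 10 Mb, and chromosome 20, with 30 at 5.04. The lowest were on chromosome 16, with 4 peaks at 0.507, and chromosome X, with 14 at 0.927. Open peaks away from the gaps were at 1.64 per 10 Mb. They were at 1.99 on chromosome 21, 3.02 on 20, 0.507 on 16 and 0.265 on X. The high density on chromosome 20 and the low ones on 16 and X were thus not particular to closed peaks. The median local background of closed peaks was 1.23 to 1.66 on all chromosomes other than 13, at 4.10, and X, at 11.5. The part of the background in these densities was not tested.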

How the data were processed

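The ERG, ERK2 and H3K27me3 ChIP libraries were single-end and pooled from 3 ChIP experiments. Per the study's methods, the authors aligned reads to hg19 with Bowtie2, removed blacklisted regions and duplicates, and called peaks with MACS2 at a p-value limit of 0.001. The headers of the RWPE1 ChIP lists give an input control. The VCaP ERG list has no header, so its control is not known. ATAC-seq peaks were called with the broad setting, and the only ATAC header, that of RWPE1+mAKT, gives no control. Pooling and the single list leave no replicate error. The deposited peak lists give the pileup (a signal), the −log10 p-value and −log10 q-value, and the fold enrichment as a ratio over local background. The file headers give 16513053 to 26454542 H3K27me3 reads, 8393459 and 15020233 ERK2 reads, 10306483 ERG reads for RWPE1-ERG+mAKT and 35688481 ATAC fragments for RWPE1+mAKT. The depth of the VCaP ERG list and the other ATAC lists is not given in the sources used here. FPKM was made by the authors with TopHat2 and Cuffdiff, pooled over 3 replicates per line. Fold-change, p- and q-value columns of that table hold the authors' own comparisons and were not used. A further 2 lists, whose contents do not match the samples they are attached to, are not used here.

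One repeated VCaP row was counted once. All closed peaks fell within the GRCh37 chromosome lengths. Of 26251 gene symbols, 22243 were placed by GENCODE 44 symbol, 1332 by an older symbol and 1322 by the locus in the table. The other 1354 shared a locus with another gene and had no position, so none could be a nearest gene. Genes listed on 2 rows (2 symbols) and the 3 with a failed estimate were left out of FPKM shares. The nearest gene was the one with the smallest gap to the peak, with ties going to a GENCODE gene and then to the shorter one. Local background, assuming that MACS2 adds 1 to both terms of its ratio, was (pileup + 1)/fold − 1. Overlap meant at least 1 bp. A short tandem repeat meant that 80% of 61 bp at the summit matched a unit of up to 6 bp. Fold values used a pseudocount of 1. Python 3.11.15, pandas 2.3.3, scipy 1.17.1 and pysam 0.24.0 were used, and the overlap, motif and nearest-gene code was tested on simulated data.

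Named regions were the 10 closed peaks of highest fold enrichment, 3 on each side of the q-value limit, and the 5 of highest fold enrichment among those with H3K27me3 in all lists or with an RWPE1-ERG+mAKT ERG peak. Named genes were their nearest genes, members of the gene lists, the 10 with most peaks, the 10 of highest FPKM and the 3 that rose and fell most in each comparison where FPKM reached 5 in the higher line and exceeded 0.5 in the lower. TMPRSS2 and ZIC2 sequences, the ERK2 genes and the regions closest to open chromatin were named after their values were seen. The closed peaks and the gene lists were chosen with earlier results of these data known. Some items that the rule names are not reported here.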

Additional observations from a re-analysis of the deposited data

How the results depend on the processing

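No paired analysis was possible because each peak list is 1 library and FPKM was pooled over the replicates. With −log10 q of at least 3, 332 closed peaks remained. Counting ATAC-seq peaks within 500 bp gave 716, and leaving out 1 ATAC list gave 815 to 867. The share with H3K27me3 in the vector, ERG and S96E lists fell to 7.90%, 4.52% and 7.4% where most of a peak (0.5 of its bases or more) had to be covered, and to 2.76%, 3.51% and 7.53% when only regions enriched 2-fold or more were counted. With equal numbers of regions per list the shares were 5.27%, 7.03% and 9.66%, so under this setting and the last the vector list was lowest, not highest. The share of closed peaks stayed above that of open peaks in every list under each of these settings. With −log10 q of at least 3, 42.8% of nearest genes were below 0.1 FPKM in RWPE1-vector and 2.11% of peaks were at gene starts. With protein-coding genes only 50.2% were between genes, and away from assembly gaps 40.8% were between genes and 50.0% in introns. Within 50 bp of the summit the motif shares were lower, at 76.5% for GGAA, 26.1% for AGGAAG or CGGAAG, 3.39% for GGAAGGAA, 1.00% for the AP-1 word, 8.53% for the forkhead word, 8.66% for AGAACA, 9.03% for AGATAA and 5.52% for CAATAAA, as the window held fewer bases. With −log10 q of at least 3 they were 93.7% for GGAA, 44% for AGGAAG or CGGAAG, 7.53% for GGAAGGAA, 18.7% for the forkhead word and 21.1% for AGATAA. Peaks within 500 bp raised the overlap to 1.76% for RWPE1-ERG+mAKT ERG and 3.89% for ERK2 in RWPE1-vector. A pseudocount of 0.1 gave 16 higher and 6 lower genes for ERG over vector, 3 lower for mAKT over vector, and 8 higher and 3 lower for ERG+mAKT over mAKT. Of the alternative values of the main results, 87 stayed within the interval (counts within 1.5-fold) of the value reported and 33 did not, and except where stated the cause was not tested. The alternative away from assembly gaps was chosen after seeing the data. The number of fragments, 9 to 20 at most peaks, limits what a single library can show.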
